A study of Canis lupus familiaris with 6 samples.

Results

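The genes followed here encode 10 matricellular and elastic fibre proteins, measured on the 6 expression arrays of a study of dog kidney cells. They are SPARC, TGFBI, POSTN, THBS1, THBS2, TNC, FSTL1, FBN1, FBLN1 and ELN. A gene was represented by a probe set that the platform annotation assigns to that symbol alone, the brightest by its 6-array mean where there were several. All 10 genes had such a probe set, out of 15947 genes measured in this way and 32293 probe sets on the array. FBN1 had 2 probe sets and the other 9 genes had 1 each.

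Matricellular proteins are secreted into the matrix but act mainly on cells: they bind collagens, integrins and growth factors and alter how cells attach, spread and respond to signals. Elastic fibres are built differently, from a core of crosslinked elastin laid on a scaffold of fibrillin microfibrils, with fibulins at the interface and latent TGFb binding proteins docked on the fibrillin. Both groups are sparse in a resting kidney tubule and are classic products of fibroblasts, wound tissue and cells that have passed through an epithelial-to-mesenchymal transition. TGFb is a known inducer of many of them, and TGFBI is named for that.

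The cells were MDCK (Madin-Darby canine kidney), an established epithelial line from dog kidney. Untreated cells gave 2 arrays and cells grown with TGFb at 5 ng/ml for 30 days, with regular subculturing, gave 2. One array came from cells that received 5-AZA for 72 hours after TGFb (the AZA array), and 1 from cells kept for 30 days after withdrawal of TGFb (the WD array). 5-AZA commonly stands for 5-azacytidine or 5-aza-deoxycytidine, both inhibitors of DNA methylation. The labels name neither the form nor its dose. The AZA and WD groups carry TGFb exposure as well, at 5 ng/ml, for a time that is not stated. The labels do not say whether TGFb stayed in the medium during 5-AZA. Nor do they say whether paired arrays are separate cultures, so p-values measure only the spread between these samples, and that spread may be technical.

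Values are the deposited signals, read as log2. A difference of 1 therefore stands for a 2-fold change, and the limit of detection is unknown because no background level is given. Signals of different probe sets depend on their own probes, so levels are compared between arrays and never between genes. Differences were tested with limma across all 32293 probe sets, errors after ± on differences are standard errors of that fit, and a difference was called where the Benjamini-Hochberg adjusted p over all probe sets was under 0.05. The untreated and TGFb pairs supply the only estimate of spread, with 2 residual degrees of freedom, and the single AZA and WD arrays were assumed to vary like them.

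The epithelial label was checked on defining markers. Of 9 epithelial markers, among them E-cadherin (CDH1) and the keratin KRT19, the mean signal was 9.51 and 9.53 on the untreated arrays, 5.66 and 6.37 on the TGFb arrays, 6.68 on the AZA array and 9.73 on the WD array. The mean of 8 mesenchymal markers ran the other way, at 6.25 and 5.91, then 8.69 and 8.38, 8.73, and 6.14. None of 5 measured kidney tubule markers was called in any comparison. Their mean was 4.80 to 5.15 on the 6 arrays, near the array medians of 4.97 to 5.01. The highest single value among them was that of the renal transcription factor PAX8, which read 5.21 to 6.50. The leukocyte markers PTPRC, CD68, CSF1R and CD3E averaged 3.62 to 3.86 on all 6 arrays. In RNA from a whole culture, fewer cells that express a gene and less RNA per cell cannot be told apart.

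**Figure D1:**
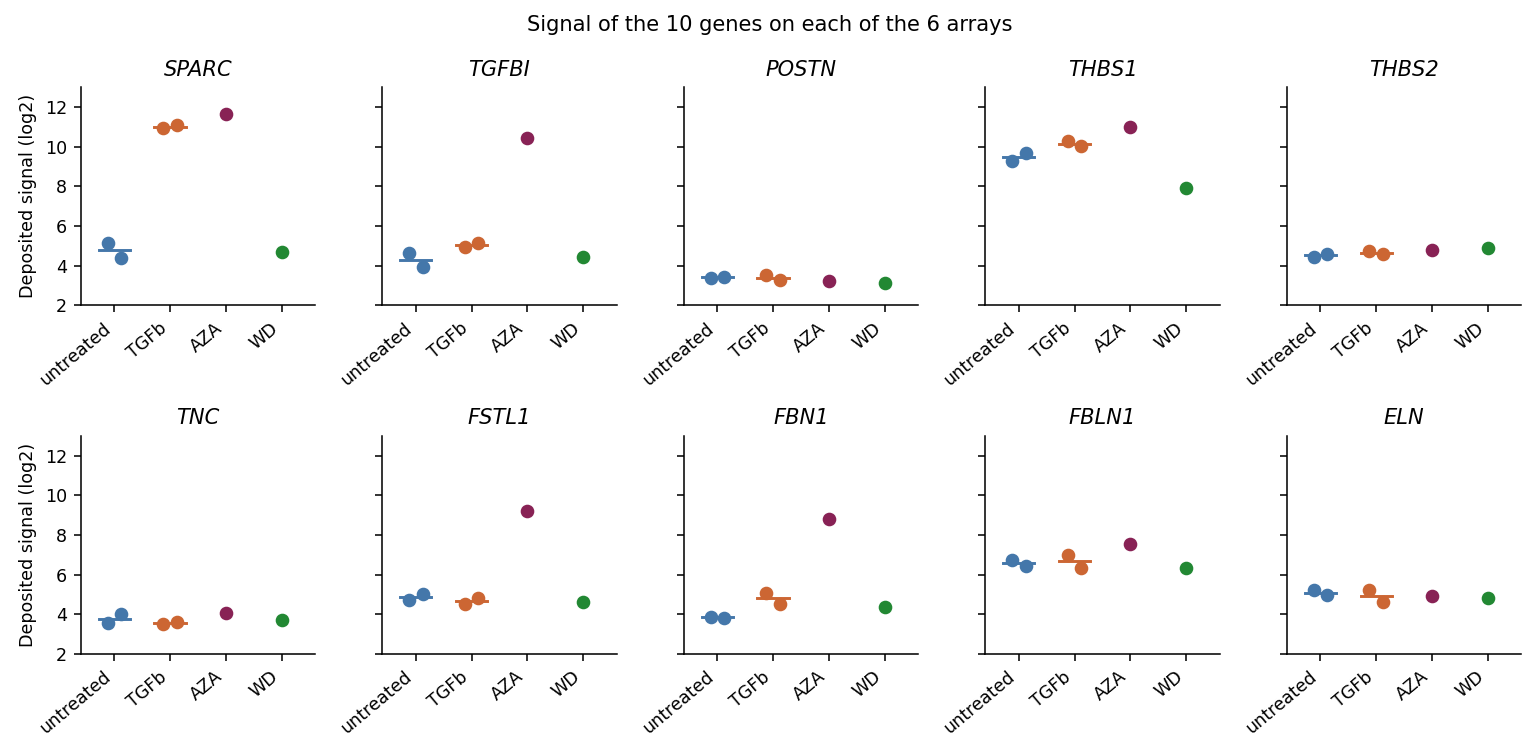
Deposited log2 signal (vertical axis) of the 10 genes on every array, grouped as untreated (2 arrays), TGFb (2), AZA (1) and WD (1). Points are single arrays and short lines the means of pairs. SPARC is high on the TGFb and AZA arrays, TGFBI, FSTL1 and FBN1 are high on the AZA array, and THBS1 is lowest on the WD array.

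SPARC, a collagen-binding glycoprotein of remodelling tissue, was the gene of the set with the clearest response to TGFb. Its signal was 5.16 and 4.41 on the untreated arrays, 10.93 and 11.08 on the TGFb arrays, 11.68 on the AZA array and 4.72 on the WD array. The TGFb and AZA arrays lay far above the other 3, and the WD array fell between the untreated arrays. SPARC rose 74.9-fold under TGFb, a log2 difference of 6.23 ± 0.28 (limma adjusted p = 0.00423), which ranked 4 among all 32293 probe sets. It fell again on the WD array by 6.29 ± 0.34 (adjusted p = 0.0138). The difference between AZA and TGFb, 0.67 ± 0.34, did not pass (adjusted p = 0.489). The rise under TGFb was not called when TGFb replicate 1 was left out, with a log2 difference of 6.30 and adjusted p = 0.0563, nor was the fall on the WD array without either TGFb array, at adjusted p = 0.0954 and 0.0811.

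Of the 10 genes SPARC was the only one called for TGFb against untreated, where 0.691% of all probe sets were called higher and 0.954% lower. The smallest difference called there was 1.01 in size, so smaller steps are not shown to be absent. The median log2 difference of the 10 was 0.12, beside −0.01 over all probe sets. At an unadjusted limma p under 0.05, 4 of the 10 passed, beside 14.8% of all probe sets. For 5 of them, SPARC, TGFBI, THBS1, THBS2 and FBN1, both TGFb arrays lay above both untreated arrays. Such a separation of pairs in either direction was found for 46.1% of all probe sets.

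TGFBI, FSTL1 and FBN1 showed another pattern, in which the AZA array exceeded the highest of the other 5 arrays by 3.75 to 5.25 on the log2 scale. SPARC, THBS1, FBLN1 and TNC were also highest on the AZA array, but by 0.085 to 0.75. TGFBI encodes a secreted adhesion protein of the fasciclin family. It read 4.65 and 3.92 on the untreated arrays, 4.95 and 5.17 on the TGFb arrays, 10.42 on the AZA array and 4.46 on the WD array. Only the AZA array stood apart by more than the spread of the others, which covered 1.25 on the log2 scale. Against the TGFb arrays TGFBI rose 41.0-fold on the AZA array, by 5.36 ± 0.34 (limma adjusted p = 0.00698). TGFb alone gave 0.78 ± 0.28 (limma adjusted p = 0.294, 95% interval 0.07 to 1.48). The fit thus did not call the gene for the factor it is named after, but it called no difference under 1.01 in that comparison.

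FSTL1 encodes a secreted glycoprotein related to SPARC and follistatin. Its signal was 4.72 and 5.04 on the untreated arrays, 4.52 and 4.83 on the TGFb arrays, 9.20 on the AZA array and 4.64 on the WD array. The untreated, TGFb and WD arrays overlapped, within 0.52 on the log2 scale, and the AZA array lay above all of them. FSTL1 rose 23.0-fold on the AZA array against TGFb, by 4.53 ± 0.24 (limma adjusted p = 0.00499). Between TGFb and untreated it differed by −0.21 ± 0.20, with a 95% interval of −0.71 to 0.30.

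FBN1 encodes fibrillin 1, the main protein of microfibrils. The brighter of its probe sets read 3.88 and 3.84 on the untreated arrays, 5.08 and 4.53 on the TGFb arrays, 8.82 on the AZA array and 4.38 on the WD array. Both TGFb arrays were above the untreated and WD arrays, and the AZA array was above all. FBN1 rose 16.2-fold on the AZA array against TGFb, by 4.02 ± 0.27 (limma adjusted p = 0.00844). Under TGFb it differed by 0.95 ± 0.22 (adjusted p = 0.145, 95% interval 0.38 to 1.51). That difference was called at adjusted p = 0.0348 when named genes with 1 probe set each were tested without the unnamed probe sets.

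The dimmer FBN1 probe set read 3.30 and 3.29 on the untreated arrays, 4.88 and 3.79 on the TGFb arrays, 8.53 on the AZA array and 3.13 on the WD array. The order of AZA over TGFb over untreated was the same in both probe sets. It also rose against TGFb, by 4.19 ± 0.45 (limma adjusted p = 0.0333). The probe sets disagreed on the WD array, which differed from untreated by 0.52 ± 0.27 in the brighter and by −0.17 ± 0.45 in the dimmer one, and neither difference passed.

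**Figure D2:**
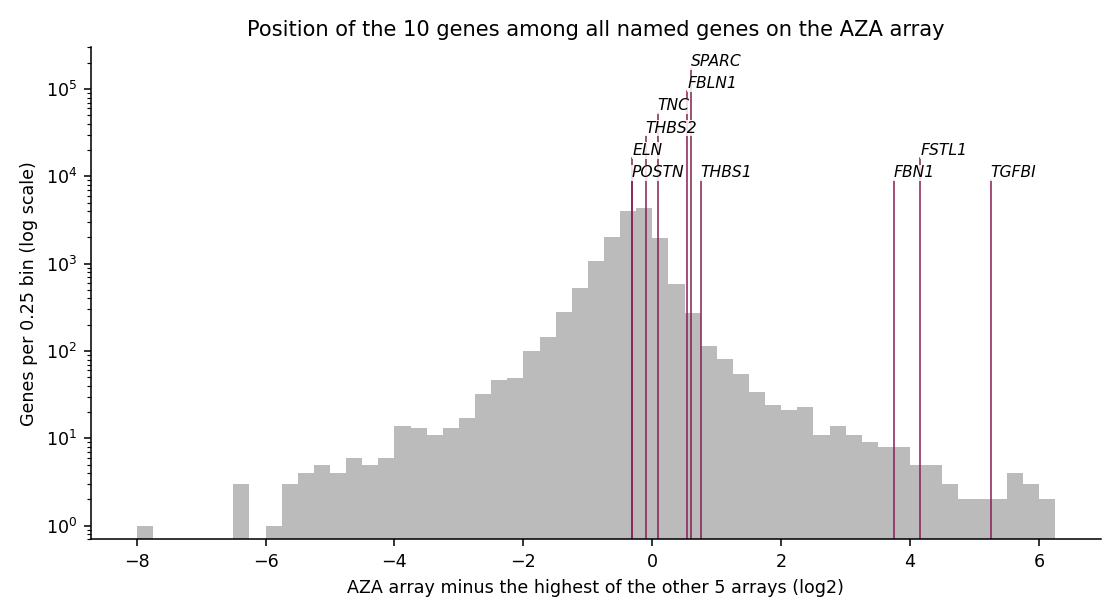
Signal on the AZA array minus the highest signal on the other 5 arrays (horizontal axis, log2) for 15947 named genes, as counts per bin on a log scale. Vertical lines mark the 10 genes. FBN1, FSTL1 and TGFBI lie in the right tail, at 3.75, 4.16 and 5.25, and the other 7 lie between −0.32 and 0.75.

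Of the 10 genes, 3 were therefore called higher on the AZA array than on the TGFb arrays, and none lower, beside 0.855% of all probe sets called higher and 0.189% lower. That lean to higher calls, 276 against 61 probe sets, was 59 against 51 when probe sets below the median signal were dropped. The median of the 10 was 0.77 and that of all probe sets −0.015. All 3 exceeded the highest of the other 5 arrays by at least 8-fold, as did 0.273% of all probe sets. These 3 calls rest on a single AZA array. They ended without either TGFb array, where adjusted p ran from 0.0596 to 0.0891 and the log2 differences from 3.75 to 5.47, and 1 residual degree of freedom was left.

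Other cell types were checked beside these rises. The endothelial marker PECAM1 read 6.57 on the AZA array and 3.24 to 3.62 on the other 5, and it rose against TGFb by 3.32 ± 0.20 (limma adjusted p = 0.00602). This call, too, ended without either TGFb array (adjusted p = 0.0831 and 0.085). The other 3 endothelial markers, CDH5, VWF and KDR, differed by 0.06 to 0.41 between AZA and TGFb and were not called. Over the 4 endothelial markers the mean was 4.86 on the AZA array and 3.80 to 4.18 on the others. The 4 leukocyte markers differed by −0.32 to 0.18 between AZA and TGFb, with none called. Among epithelial and mesenchymal markers none was called between AZA and TGFb. Still, 4 of the 9 epithelial and 3 of the 8 mesenchymal markers had an unadjusted limma p under 0.05, beside 13.7% of all probe sets. Above 0 lay 8 of the 9 and 5 of the 8, beside 48% of all probe sets. The largest rises, CLDN1 at 2.76 and COL3A1 at 1.18, were called when only named genes were tested (limma adjusted p = 0.0082 and 0.0359).

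Against untreated cells, 5 of the 10 genes were higher on the AZA array and none lower, where 2.24% of all probe sets were called higher and 1.41% lower. With the dimmer probe sets dropped the lean of the calls turned round, from 724 higher and 454 lower to 509 and 711. This comparison shares its AZA array with the one above. SPARC differed by 6.89 ± 0.34, TGFBI by 6.13 ± 0.34, FBN1 by 4.96 ± 0.27 and FSTL1 by 4.32 ± 0.24, with limma adjusted p from 0.00263 to 0.00302. These 4 calls held without any 1 of the untreated and TGFb arrays. THBS1 was the fifth, at 1.54 ± 0.25 (adjusted p = 0.0453), and its call ended without any 1 of those 4 arrays, with adjusted p from 0.0787 to 0.11.

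THBS1 encodes thrombospondin 1, a trimeric glycoprotein known to release active TGFb from its latent complex. Its signal was 9.29 and 9.68 on the untreated arrays, 10.27 and 10.02 on the TGFb arrays, 11.02 on the AZA array and 7.92 on the WD array. Both TGFb arrays exceeded both untreated arrays by less than 1 on the log2 scale, the AZA array was the highest, and the WD array lay below all others. The step under TGFb was 0.66 ± 0.20 (limma adjusted p = 0.232, 95% interval 0.15 to 1.17). On the WD array THBS1 fell 4.68-fold against TGFb, by 2.23 ± 0.25 (adjusted p = 0.0416), and this call ended without any 1 of the untreated and TGFb arrays, with adjusted p from 0.0653 to 0.207.

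The WD array also lay below the untreated arrays for THBS1, by 1.37 and 1.76 on the log2 scale. The fitted difference of −1.57 ± 0.25 did not pass over all probe sets (limma adjusted p = 0.302, 95% interval −2.20 to −0.94). THBS1 was the only gene of the 10 with an unadjusted limma p under 0.05 for WD against untreated. In that comparison 0% of all probe sets were called, and 3154 of the 32293 had an unadjusted p under 0.05. SPARC differed there by −0.06 ± 0.34 (95% interval −0.93 to 0.81), TGFBI by 0.18 ± 0.34 (−0.69 to 1.04) and FSTL1 by −0.24 ± 0.24 (−0.86 to 0.38). These intervals still allow differences of up to 1.04 on the log2 scale for TGFBI, and of −0.86 for FSTL1 and −0.93 for SPARC. Of the 10 genes, SPARC and THBS1 fell on the WD array against TGFb and none rose, beside 0.471% of all probe sets called lower and 0.369% higher.

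**Figure D3:**
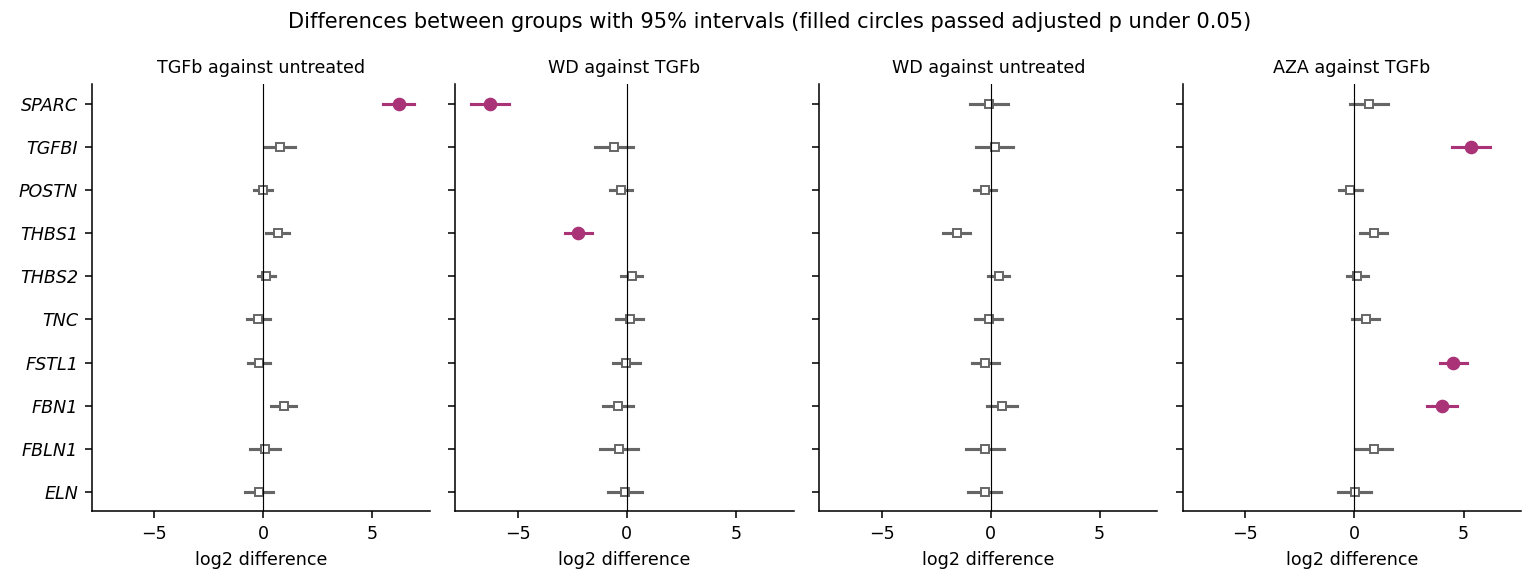
Log2 differences (horizontal axis) of the 10 genes in 4 comparisons, with 95% intervals from the limma fit as bars. Filled circles passed an adjusted p under 0.05 over all probe sets and open squares did not. The intervals of SPARC sit near 6 for TGFb and near −6 for WD against TGFb. For AZA against TGFb the estimates of TGFBI, FSTL1 and FBN1 lie between 4.02 and 5.36, and their intervals between 3.33 and 6.22.

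The other 5 genes were called in no comparison. FBLN1 encodes fibulin 1, a calcium-binding protein found on elastic fibres and basement membranes. It read 6.75 and 6.42 on the untreated arrays, 7.02 and 6.34 on the TGFb arrays, 7.56 on the AZA array and 6.32 on the WD array. The TGFb pair spanned the untreated pair, and the AZA array was the highest. The difference between AZA and TGFb was 0.88 ± 0.34 (limma adjusted p = 0.356, 95% interval 0.02 to 1.74), and the TGFb replicates themselves were 0.68 apart.

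ELN encodes tropoelastin, the soluble precursor of the elastic core. Its signals of 5.24 and 4.97 (untreated), 5.21 and 4.63 (TGFb), 4.92 (AZA) and 4.83 (WD) overlapped between groups. The 95% interval for TGFb against untreated was −0.81 to 0.44. The ELN probe set is identified by its platform symbol alone.

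POSTN encodes periostin, the close relative of TGFBI in the fasciclin family. It stayed between 3.14 and 3.54 on all 6 arrays, and the AZA array, at 3.22, lay below both TGFb arrays. Between AZA and TGFb its 95% interval was −0.70 to 0.33, whereas that of TGFBI was 4.49 to 6.22. The POSTN probe set is dim, with a 6-array mean of 3.33 beside a median of 4.99 over probe sets. Whether it detects POSTN RNA was not tested. THBS2 encodes thrombospondin 2, the relative of THBS1. It ran from 4.45 to 4.89, highest on the WD array, and WD against TGFb gave 0.22 ± 0.19 (95% interval −0.26 to 0.70) beside −2.86 to −1.60 for THBS1.

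TNC encodes tenascin C, a large hexameric glycoprotein of healing wounds. It ranged from 3.52 to 4.09, highest on the AZA array and next highest, at 4.01, on untreated replicate 2. Its untreated replicates differed by 0.44, about as much as AZA and TGFb did (0.52 ± 0.24, limma adjusted p = 0.45). The 6-array means of TNC, THBS2 and ELN, 3.75, 4.68 and 4.97, also lay below the median of 4.99 over probe sets.

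Likeness to other genes was measured as the Euclidean distance between the 6 array values after each gene's own mean was subtracted. The nearest profiles to SPARC were NEGR1 (distance 1.01), the TGFb pseudoreceptor BAMBI (1.24) and KERA, encoding the proteoglycan keratocan (1.49). TGFBI lay nearest to PSMA8 (0.33), a subunit of the testis proteasome, to CTHRC1 (0.62) and to ASZ1 (0.68), a germ cell gene. FSTL1 lay nearest to C27H12orf40 (0.45), to the meiotic recombination enzyme SPO11 (0.49) and to the germ cell gene GTSF1 (0.52). FBN1 lay nearest to PTPRD (0.62), GULP1 (0.69) and MFAP5 (0.72), a microfibril protein. THBS1 lay nearest to MVB12B (0.42), the growth factor receptor FGFR1 (0.57) and the matricellular gene CCN2 (0.59). Within the set, FBN1 and FSTL1 were 1.34 apart and FBN1 and TGFBI 1.42, but SPARC was at least 6.06 from every other member.

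Related genes were then taken from 4 lists of 94 symbols. Of 23 other matricellular genes, all measured, none was called for TGFb against untreated, for WD against TGFb or for AZA against TGFb, and 3, 2 and 6 had an unadjusted limma p under 0.05, beside 14.8%, 13.5% and 13.7% of all probe sets. Their medians were −0.05, −0.001 and 0.14. CCN2, which encodes connective tissue growth factor, read 6.21 and 5.91 (untreated), 7.12 and 6.61 (TGFb), 7.62 (AZA) and 4.80 (WD). As with THBS1 its WD array was the lowest and its AZA array the highest, and WD against TGFb gave −2.06 ± 0.28 (adjusted p = 0.0646).

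CCN6, a further CCN family gene, was picked after its values were seen and lay closest of this list to the threshold for WD against TGFb. It read 4.22 and 4.75 (untreated), 6.85 and 5.99 (TGFb), 7.54 (AZA) and 3.04 (WD), so both TGFb arrays were above the untreated arrays and the WD array was below all. WD against TGFb gave −3.38 ± 0.43 (limma adjusted p = 0.0534). That difference was called with an intensity trend (0.0483), with identical rows counted once (0.0467), with dimmer probe sets dropped (0.0159) and with named genes only (0.00288), but not under the other alternatives. TGFb against untreated gave 1.94 ± 0.35 (adjusted p = 0.0831) and was called under the last 2 of these settings, at 0.0325 and 0.00921.

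Of 31 other elastic fibre genes measured out of 32, LOX alone was called for TGFb against untreated. Over all probe sets 0.691% were called higher there and 0.954% lower. LOX encodes lysyl oxidase, which crosslinks elastin and collagen. It read 8.74 and 8.27 on the untreated arrays, 10.97 and 10.67 on the TGFb arrays, 10.97 on the AZA array and 7.76 on the WD array. It rose by 2.31 ± 0.23 under TGFb (limma adjusted p = 0.0221) and fell by 3.06 ± 0.28 on the WD array (adjusted p = 0.0281), while AZA against TGFb gave 0.15 ± 0.28. The first 2 calls ended without any 1 of the untreated and TGFb arrays, at adjusted p from 0.0745 to 0.165 and from 0.0521 to 0.162. The list median under TGFb was −0.07. On the WD array 2 of the 31 were called lower than under TGFb, beside 0.471% of all probe sets.

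LTBP1, which encodes a latent TGFb binding protein that attaches to fibrillin, fell with LOX on the WD array. Its signals were 9.72 and 9.42 (untreated), 10.35 and 10.38 (TGFb), 10.78 (AZA) and 6.98 (WD). The fall against TGFb was 3.38 ± 0.21 (limma adjusted p = 0.0144) and was not called without either TGFb array (adjusted p = 0.119 and 0.0911). The WD array again lay below both untreated arrays, with a difference of −2.59 ± 0.21 (adjusted p = 0.199) that was called at adjusted p = 0.00727 when only named genes were tested.

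On the AZA array the elastic fibre genes MFAP5 and EFEMP1 were called higher than under TGFb, as were 0.855% of all probe sets. Of the 31 genes 26 lay above 0, beside 48% of all probe sets. Their median was 0.21 beside −0.015 over all probe sets, and 7 of the 31 had an unadjusted limma p under 0.05, beside 13.7% of all probe sets. MFAP5, encoding a microfibril glycoprotein that binds fibrillin, read 7.73 on the AZA array and 3.26 to 3.75 on the other 5. It rose by 4.08 ± 0.20 (limma adjusted p = 0.00436). EFEMP1, which encodes fibulin 3, read 7.70 there and 3.24 to 3.75 elsewhere, and rose by 4.05 ± 0.26 (adjusted p = 0.00742). Both calls ended without either TGFb array, with adjusted p from 0.0596 to 0.0924. FBN2, the fibrillin 1 relative, differed by 0.04 ± 0.18 and was chosen for mention after its value was seen.

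Among 22 receptors for these proteins, 2 were called lower under TGFb and none higher, beside 0.954% and 0.691% of all probe sets. On the WD array 1 was called higher and 1 lower than under TGFb, beside 0.369% and 0.471%. ITGB6, encoding the epithelial integrin chain that binds latent TGFb and fibronectin, read 9.83 and 9.27 (untreated), 6.36 and 7.22 (TGFb), 7.54 (AZA) and 9.04 (WD), and fell by 2.76 ± 0.35 (limma adjusted p = 0.0402). PTPRZ1, a receptor phosphatase that binds tenascins, fell by 2.02 ± 0.24 under TGFb (adjusted p = 0.0336) and rose by 2.65 ± 0.29 on the WD array (adjusted p = 0.04). ITGB3, a chain of the vitronectin receptor, read 9.62 and 9.38 on the TGFb arrays and 7.75 on the WD array, a fall of 1.75 ± 0.20 (adjusted p = 0.0428). None of the 22 was called between AZA and TGFb, where 3 had an unadjusted limma p under 0.05, beside 13.7% of all probe sets. For TGFb against untreated 7 of the 22 had such a p, beside 14.8% of all probe sets. For WD against TGFb 10 of the 22 did, beside 13.5%. Each receptor call ended without any 1 of the untreated and TGFb arrays, with adjusted p from 0.0563 to 0.218.

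Of 16 measured proteases that cleave such proteins, 1 was called higher for TGFb against untreated, beside 0.691% of all probe sets. For WD against TGFb 2 were called lower, beside 0.471%, and for AZA against TGFb 1 was called higher, beside 0.855%. In these 3 comparisons 6, 7 and 6 of the 16 had an unadjusted limma p under 0.05, beside 14.8%, 13.5% and 13.7% of all probe sets. Their medians were 0.41, −0.42 and 0.42. HTRA1, a secreted serine protease, read 9.21 and 9.22 (untreated), 10.41 and 10.42 (TGFb), 11.10 (AZA) and 8.88 (WD). It rose under TGFb (limma adjusted p = 0.0341) and fell on the WD array by 1.53 ± 0.17 (adjusted p = 0.0431). The collagenase MMP13 read 9.01 and 10.68 (untreated), 11.03 and 10.30 (TGFb), 10.66 (AZA) and 4.57 (WD), and fell on the WD array by 6.10 ± 0.72 (adjusted p = 0.0469). The gelatinase MMP2 read 7.17 on the AZA array and 4.29 to 4.54 on the other 5, and rose against TGFb by 2.75 ± 0.20 (adjusted p = 0.00937). The HTRA1 and MMP2 calls ended without any 1 of the untreated and TGFb arrays (adjusted p from 0.0504 to 0.22). That of MMP13 ended without either TGFb array (0.22 and 0.18), under quantile normalization (0.053) and under robust moderation (0.056).

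Between AZA and untreated, called genes of the 4 lists numbered 1 of 23 matricellular, 3 of 31 elastic fibre, 1 of 22 receptor and 4 of 16 protease genes, all higher, beside the 2.24% of all probe sets called higher. CCN6 differed by 3.05 ± 0.43. Those not yet described are named after their values were seen: the fibronectin receptor chain ITGA5 (2.43 ± 0.40), the collagenase MMP1 (3.88 ± 0.30) and the elastase MMP12 (1.21 ± 0.18). The limma adjusted p of these 4 ran from 0.00687 to 0.0478. Without single arrays the calls of CCN6, ITGA5 and MMP12 ended, at adjusted p up to 0.107, 0.151 and 0.117, as did those of LOX and HTRA1, at up to 0.0594 and 0.0564, and that of ITGA5 also ended under robust moderation (0.0525).

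**Figure D4:**
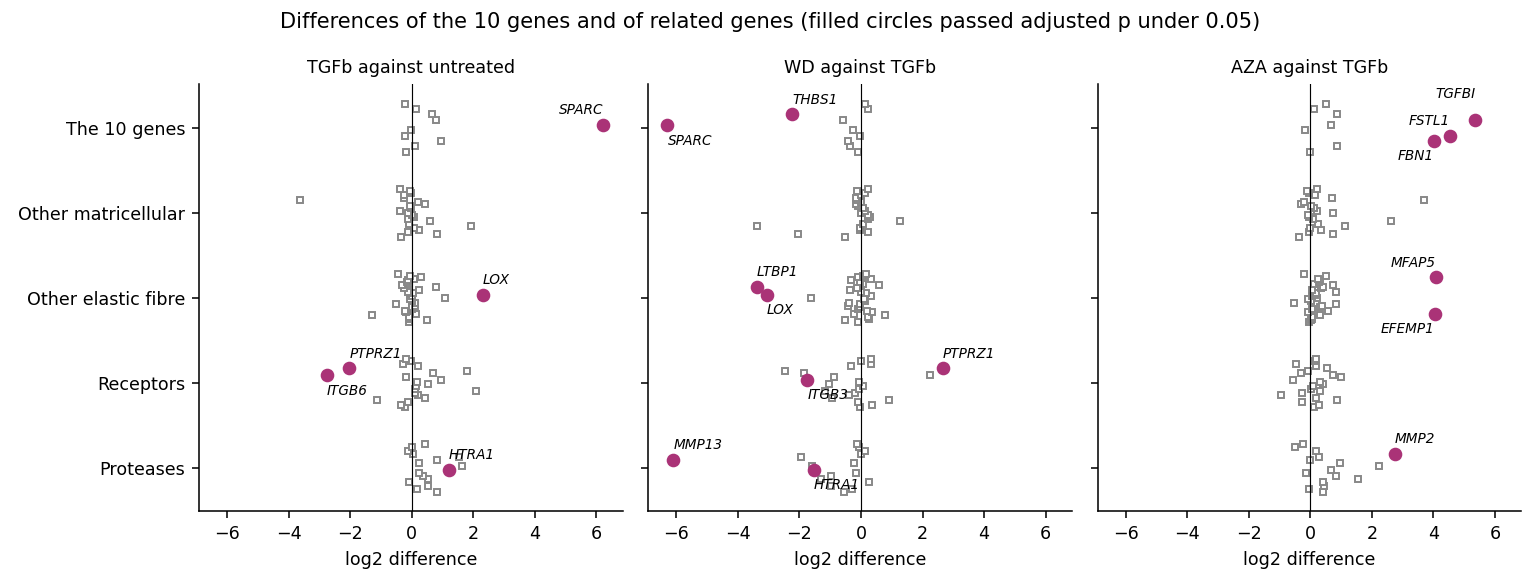
Log2 differences (horizontal axis) of the 10 genes and of 4 lists of related genes in 3 comparisons, 1 point per gene, with filled circles for an adjusted p under 0.05 over all probe sets. Filled points with SPARC at 6.23 and LOX at 2.31 mark TGFb, and those with TGFBI, FSTL1, FBN1, MFAP5 and EFEMP1 between 4.02 and 5.36 mark AZA against TGFb.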

How the data were processed

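Total RNA of MDCK cells was measured on 6 single-colour Affymetrix arrays. The deposited log2 signals were made by the authors with Affymetrix Expression Console 1.2, per the submitters' processing notes. How probes were summarised, how background was corrected and the log base are not given in the sources used. With a range of 0.94 to 13.13 and array medians of 4.97 to 5.01 the values were read as log2; another base would scale all differences alike. The number of arrays limits the precision.

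Symbols came from the platform annotation (16545 probe sets with 1 symbol, 370 with several, 15378 with none), and 9 of the 10 genes matched the RefSeq gene table of UU_Cfam_GSD_1.0 by entrez identifier. ELN was the gene without a match. No protein or promoter sequence was used here.

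One limma fit (version 3.58.1, R 4.3.3; lmFit and eBayes, prior degrees of freedom 3.10) took all 6 arrays in 4 groups, with no filter, and the procedure was tested on simulated data. With 200 of 32293 probe sets changed by 1 on the log2 scale, 0% of them were recovered in any comparison. Of changes of 2, 89.5 to 98.5% were recovered, with 22 to 31 false calls. The simulated noise was normal and took its variances from the moderated fit, so these shares may not hold for the real arrays. There, larger differences also went uncalled, such as −3.64 for SPP1 under TGFb. The 5 comparisons share arrays. The members and lists were chosen with earlier results of these data known. All 10 members are named, as are the nearest profiles of the 5 with a call and genes of the 4 related lists called for TGFb against untreated or for WD or AZA against TGFb. Markers are given mainly as means. CCN6, FBN2, ITGA5, MMP1, MMP12, SPP1 and FST were picked after their values were seen. Alternatives were an intensity trend, quantile normalization, robust moderation, median centring, dim probe sets dropped, named genes only, identical rows once, averaged probe sets, a replicate block and each replicated array left out.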

Additional observations from a re-analysis of the deposited data

How the results depend on the processing

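No value of the 10 genes that was called changed direction under any alternative listed above. Outside the left-out arrays no call of theirs ended, and 1 was gained, FBN1 for TGFb against untreated (log2 difference 0.95, adjusted p = 0.0348) with named genes only, which made 2 of the 10 called. Leaving out single arrays ended a call 17 times, where a call lost in several left-out fits counts once for each fit. The numbers of the 10 called then ran from 0 to 1 for TGFb against untreated, 0 to 1 for WD against TGFb and 0 to 3 for AZA against TGFb. Probe sets called ran from 0 to 129, 0 to 97 and 0 to 137 in these comparisons, and from 346 to 435 for AZA against untreated (1178 with all arrays). These counts of 0 still had 3138 to 3467 probe sets at an unadjusted limma p under 0.05, with 1 residual degree of freedom.

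With probe sets below the median signal dropped, 1001 were called for TGFb against untreated (531 with all), 649 for WD against TGFb (271) and 110 for AZA against TGFb (337), and 6 of the 10 genes were tested. TGFBI, FSTL1 and FBN1 passed this filter only through the AZA array, since their other 5 arrays averaged 4.63, 4.75 and 4.34, under the median of 4.99, so their calls there lend no support. With named genes only the counts were 1228, 907 and 682, and 58 for WD against untreated (0). Fewer features were tested in both. Among 29 related and marker genes called in at least 1 comparison no call reversed. Counted once per gene, comparison and setting, calls ended 155 times and were gained 2 times without single arrays. Under the other alternatives they ended 7 times and were gained 41 times. With a replicate block on the 4 numbered arrays 712 probe sets were called and 1 of the 10 genes. The deviations of same-numbered arrays correlated at 0.10, so the numbers were not taken as pairs.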

Other observations

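Among the other matricellular genes SPP1 and FST had the largest differences between AZA and TGFb, 3.70 and 2.61 on the log2 scale, neither of which passed. Both were picked after their values were seen. SPP1, which encodes osteopontin, read 9.94 and 9.63 on the untreated arrays, 5.02 and 7.27 on the TGFb arrays, 9.85 on the AZA array and 6.02 on the WD array. Its TGFb arrays lay below the untreated arrays, but 2.25 apart from each other, and the difference of −3.64 ± 0.72 did not pass (limma adjusted p = 0.104). The WD array stayed 3.76 ± 0.89 below untreated (adjusted p = 0.36). FST, which encodes the activin antagonist follistatin, read 5.44 and 4.35, 5.89 and 5.08, 8.10 on the AZA array and 6.76 on the WD array. Against untreated the AZA array differed by 3.20 ± 0.55 (adjusted p = 0.0521) and the WD array by 1.87 ± 0.55 (adjusted p = 0.426).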
